A study of Mus musculus with 2 samples.

Results

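Imprinted genes are expressed mainly or only from the copy inherited from 1 parent, because the other copy carries DNA methylation or other marks laid down in the germ line. Many of them lie in clusters that share a control region, and many encode regulators of growth, of metabolism or of the fate of progenitor cells, skeletal muscle precursors included. The 10 protein-coding genes described here were listed by name: Magel2, Ndn, Peg3, Zim1, Plagl1, Grb10, Dlk1, Sgce, Peg10 and Mest. In the mouse the copy from the father is the active one for all of them except Zim1, which is expressed from the mother's copy, and Grb10, which is expressed from the mother's copy in most tissues outside the brain. All probe sets that the array's annotation assigns to 1 gene with such a symbol were taken, which gave 27 probe sets for 10 of the 18193 genes on the array. The arrays report the summed RNA of both copies, so they say nothing about which parental copy was active.

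The RNA came from primary myoblasts, the precursor cells of skeletal muscle fibres, isolated from newborn mice of the Sv129 strain and grown on laminin and collagen. Both cultures then spent 4 hours in DMEM that held 2% horse serum. The Wnt3a group, 1 array, also received Wnt3a at 100 ng/ml, a secreted signal that keeps β-catenin from being degraded, and the control group, 1 array, received the medium without Wnt3a. Which transcripts differ after this exposure is the question of the comparison, and with 1 array per group every value below is a single measurement, without replicates, and nothing could be tested.

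The number of arrays limits the precision. Levels are given as deposited intensities and as log2(intensity + 1), and differences as Wnt3a minus control on that log2 scale. A gene counts as measured where its brightest probe set reached 6 on the log2 scale (an intensity of 63) on at least 1 array, as 11397 genes did, and this floor says nothing about detection. The central 95% of their differences lay between -0.33 and 0.33, and where 1 gene had several probe sets (5084 genes) their differences scattered with a pooled SD of 0.12. That SD covers noise between probes and not noise between cultures. All 8 myoblast markers examined were measured, at 9.97 to 13.41 on the log2 scale, with a summed intensity of 29458 with Wnt3a and 30522 in the control. Single markers moved apart within that sum, with Vcam1 (-0.63), Met (-0.45) and Itga7 (-0.26) lower and Myf5 (0.49) and Des (0.32) higher, and their part in the results below was not tested. The 42 spike-in control probe sets were all lower on the Wnt3a array, with a median of -0.19. Scaling on them would add 0.19 to every difference, so each direction below is relative to the typical gene on the arrays.

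Most of these imprinted genes were close to each other on the 2 arrays, and the exceptions ran in opposite directions. Magel2 was 1.82-fold higher with Wnt3a, while Peg3 and Peg10 were each 1.30-fold lower. Zim1 was at least 1.07-fold lower against the floor, which it passed through the control array alone, so that its direction was set by the filter. Of the 9 measured members, 1 was at least 1.5-fold higher, against 0.886% of all measured genes, and 0 were at least 1.5-fold lower, against 0.342%. By 2-fold in either direction 0 of 9 differed, against 0.316%, and under spike-in scaling 1 did, Magel2 (1.06), against 0.425%. At a lower threshold of 0.32 on the log2 scale, 1 of 9 was higher and 3 of 9 were lower, where 2.61% and 2.7% of all measured genes were. When levels under the floor were set to the floor, 2 of the 9 were lower by that much, Peg3 and Peg10. The share of all measured genes was not counted under that rule. Under spike-in scaling the count was 1 higher and 0 lower, where 14.8% of all measured genes were higher and 0.519% lower by 0.32 or more. The median difference of the 9 was -0.05, beside -0.01 over all measured genes. Under spike-in scaling it was 0.14, beside 0.19 over all measured genes. In bulk RNA, fewer cells that express a gene and less of its RNA per cell cannot be told apart.

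**Figure D1:**
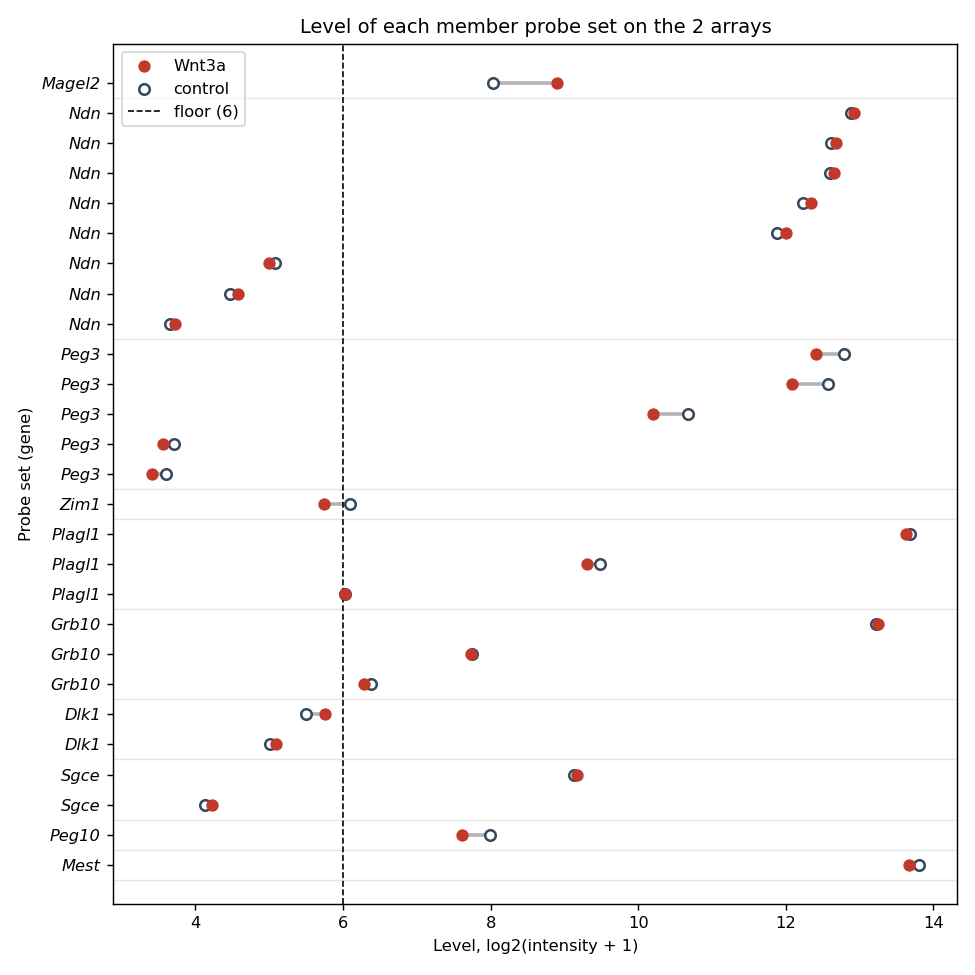
Level of each of the 27 probe sets of the 10 imprinted genes, as log2(intensity + 1) on the horizontal axis, with the Wnt3a array as filled points and the control array as open points. Grey bars join the values of a probe set, and the dashed line is the floor of 6. Magel2 lies to the right with Wnt3a, all 5 Peg3 probe sets lie to the left, and both Dlk1 probe sets stay below the floor.

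Magel2 and Ndn encode proteins with a MAGE homology domain and are adjacent protein-coding genes in the mouse counterpart of the Prader-Willi region. MAGEL2 acts with the ubiquitin ligase TRIM27 in the recycling of membrane proteins through endosomes, and necdin, the product of Ndn, is known as a suppressor of cell growth that is active in neurons and in muscle progenitors. Magel2 had an intensity of 475 with Wnt3a and 259.9 in the control, or 8.89 and 8.03 on the log2 scale. The difference of 0.87 was higher than that of 99.7% of the measured genes and lay outside the central 95% of the 2023 measured genes of like brightness (within 0.5 of its mean level on the log2 scale), which ran from -0.37 to 0.30. It rests on 1 probe set, so no second measurement of Magel2 is at hand. Ndn, by contrast, had an intensity of 7791 with Wnt3a and 7571 in the control on its brightest probe set, a difference of 0.04. Its 5 probe sets at the floor lay between 0.04 and 0.12 (mean 0.08 ± 0.04, SD over 5 probe sets), all of them slightly higher with Wnt3a. The other 3 probe sets of Ndn were below 6 on both arrays.

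The stretches before the starts of these neighbours are shown because one of the genes differed between the arrays and the other hardly did. Each is the 250 bases ahead of the start in RefSeq's annotation of build GRCm38.p6, on the + strand, at chr7:62376729-62376978 for Magel2 and at chr7:62348027-62348276 for Ndn. Capitals mark the GC box GGGCGG on either strand.
Magel2: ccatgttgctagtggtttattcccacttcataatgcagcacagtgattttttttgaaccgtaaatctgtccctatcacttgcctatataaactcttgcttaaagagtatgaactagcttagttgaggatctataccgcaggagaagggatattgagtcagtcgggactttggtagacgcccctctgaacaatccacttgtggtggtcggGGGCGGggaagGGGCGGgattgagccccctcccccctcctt
Ndn: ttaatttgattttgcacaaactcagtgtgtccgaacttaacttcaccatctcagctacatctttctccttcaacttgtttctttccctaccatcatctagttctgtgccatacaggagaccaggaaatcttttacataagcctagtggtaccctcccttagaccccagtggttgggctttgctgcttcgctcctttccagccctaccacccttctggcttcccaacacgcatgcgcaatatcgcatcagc
The Magel2 stretch holds 2 GC boxes and the Ndn stretch 0, with a G and C content of 48.8% and 47.2%. In the full windows of 300 bases, which run on for 50 bases past the start, both genes have 2. Of all 32851 promoter windows of this length in the RefSeq table, 35.7% hold at least 1 GC box. The letters to which TCF/LEF factors, the DNA-binding partners of β-catenin, are known to bind were searched on both strands as CTTTG followed by AA, AT, TA or TT. They were in 0 of the 11 windows of the 8 members that have one, and in 16.9% of all windows. No match says only that these letters are not in these windows.

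The remaining measured genes of the Ndn and Magel2 domain resembled Ndn in the size of their differences. Mkrn3, a RING finger gene next to Magel2, had the same intensity of 74.2 on both arrays, one of 1689 probe sets with identical deposited values. Peg12, an intronless gene related to the Frat regulators of GSK3, differed by 0.06 (136 with Wnt3a, 131 in the control). Snrpn, a gene of small ribonucleoprotein particles, differed by 0.14 on its 1 single-gene probe set, and Ube3a, a ubiquitin ligase, by -0.08 on its brightest. The 4 Ube3a probe sets at the floor ranged from -0.59 to -0.03, with the largest on a set that dropped below the floor with Wnt3a. On their brightest probe sets none of these neighbours differed by more than 0.14 in size, against the 0.87 of Magel2.

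Peg3 encodes a large zinc finger protein, also called PW1, which is known from satellite cells and interstitial cells of muscle and takes part in p53 and tumour necrosis factor signalling. Zim1 encodes another zinc finger protein and lies beside Peg3. Peg3 was lower with Wnt3a on every probe set. The brightest had an intensity of 5447 with Wnt3a and 7056 in the control, or 12.41 and 12.78 on the log2 scale, a difference of -0.37. The second had 12.09 with Wnt3a and 12.57 in the control, a difference of -0.49, and the third 10.20 with Wnt3a and 10.67 in the control, a difference of -0.47. Their mean was -0.44 ± 0.06 (SD over 3 probe sets), so the probe sets lay close together. Among the 2070 genes with at least 3 probe sets at the floor, 0.821% had all of them lower by at least 0.32 on the log2 scale, as Peg3 did. The difference on the brightest set lay below the central 95% of the 451 genes of like brightness, which ran from -0.21 to 0.32, and 1.82% of all measured genes had a lower one. The 2 probe sets below the floor gave -0.15 and -0.19.

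Zim1 had an intensity of 52.4 with Wnt3a and 67.2 in the control on its 1 probe set. The level with Wnt3a was below the floor, and the gene counts as measured only through the control array, where it was the higher, so its direction is no finding. The difference of -0.35 was within the range of genes of like brightness (-0.38 to 0.43), became -0.09 with the level raised to the floor, and gives a bound of at least 1.07-fold lower against the floor. Usp29, a deubiquitinase gene that starts beside Peg3 on the other strand and was not among the 10, had an intensity of 65.5 with Wnt3a and 88.4 in the control, a difference of -0.43, and its dimmer probe set, under the floor, gave -0.13. The -0.43 lay just outside the range of genes of like brightness (-0.37 to 0.41). It rests on 1 probe set that was just above the floor with Wnt3a, at 6.06 on the log2 scale. Under spike-in scaling Peg3 was at -0.18 and Usp29 at -0.24. Zim2 (0.10) and Zim3 (0.16) of the same domain were below the floor on both arrays.

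Of the fibroblast and fibro-adipogenic markers, whose cells also can hold Peg3 RNA, 1 of 8 was measured, Col3a1, at 13.19 with Wnt3a and 13.42 in the control. The list's summed intensity was 9562 with Wnt3a and 11218 in the control, and the other 7 were below the floor. Of 4 smooth muscle and pericyte markers, 2 were measured, Cspg4 and Acta2. That list summed to 9236 with Wnt3a and 7556 in the control. Measured too were 2 of 4 endothelial markers (Kdr, Tek), 3 of 5 leukocyte markers (Csf1r, Lyz2, Laptm5) and the Schwann marker Sox10. Kdr was just above the floor, at 6.06 on both arrays. Tek (5.34 with Wnt3a, 6.16 in the control) and Lyz2 (5.96 with Wnt3a, 6.16 in the control) passed it only through the control array. Csf1r, Laptm5 and Sox10 lay between 6.54 and 7.43 on both arrays. The part of any of these cells in the Peg3 difference was not tested.

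Peg3 and Usp29 are read away from each other out of a short shared stretch, which is shown because both differed in the same direction. It covers the 96 bases between the annotated ends of both genes in GRCm38.p6, chr7:6730463-6730558, written on the + strand, on which Usp29 is read. Capitals mark the letters CCAAT on either strand.
Peg3 and Usp29: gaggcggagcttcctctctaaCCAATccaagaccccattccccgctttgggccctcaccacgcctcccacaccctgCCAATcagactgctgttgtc
It holds 2 CCAAT boxes, the only windows among the members to hold any being that of Peg3, while 37.4% of all promoter windows hold at least 1. The E-box letters CAGCTG, to which myogenic factors such as MyoD are known to bind, were in 1 of the 11 member windows, that of an upstream start of Mest, and in 16.3% of all windows.

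**Figure D2:**
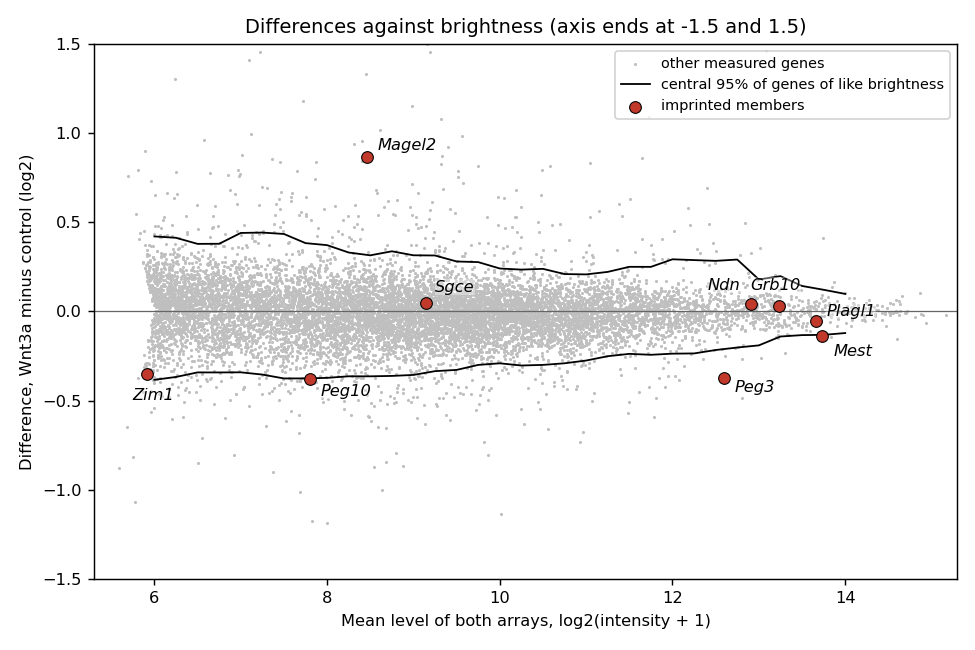
Difference in log2 units (Wnt3a minus control, vertical axis) against the mean level of both arrays in log2 units (horizontal axis), for the 11397 measured genes in grey, of which 19 lie beyond the axis, and the 9 measured imprinted members in red. The black lines bound the central 95% of genes of like brightness. Magel2 lies above this range, Peg3 clearly below it, and Peg10 and Mest at its lower edge.

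Plagl1 encodes ZAC1, a zinc finger transcription factor that slows the cell cycle and regulates other imprinted genes in the mouse. It had an intensity of 12685 with Wnt3a and 13171 in the control on its brightest probe set, a difference of -0.05. That set carries the suffix that marks probes able to match other transcripts. A second set differed by -0.17 (9.31 with Wnt3a, 9.48 in the control), and the last was identical on both arrays, at 6.03. The mean was -0.07 ± 0.09 (SD over 3 probe sets), a mean smaller than its SD.

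Among the other imprinted genes that are often placed in a network with Plagl1, Cdkn1c stood out on the low side. It encodes a cyclin-dependent kinase inhibitor and had an intensity of 279.9 with Wnt3a and 561 in the control, a difference of -1.002 on 1 probe set. Igf2, the fetal growth factor gene, had levels of 12.29 with Wnt3a and 12.26 in the control. Its receptor gene Igf2r, whose product clears the factor, differed by 0.13.

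Grb10 encodes an adaptor that binds the insulin and IGF receptors and dampens their signal. Its brightest probe set had an intensity of 9757 with Wnt3a and 9556 in the control, a difference of 0.03. The other sets gave -0.01 (7.74 with Wnt3a, 7.75 in the control) and -0.10 (6.29 with Wnt3a, 6.38 in the control), and the mean was -0.03 ± 0.06 (SD over 3 probe sets). The genes of insulin and IGF receptor signalling, where Grb10 acts, were counted as well. All 13 with a single-gene probe set were measured, 9 of them higher and 4 lower. Over all 11397 measured genes, 5389 were higher and 5839 lower. By 0.32 or more on the log2 scale 0 of the 13 differed, against 5.32% of all measured genes. A list of this size would hold few such genes at that share, so the count says little about the list. Under spike-in scaling 12 of the 13 were higher, where 90.4% of all measured genes were, and 5 of them by 0.32 or more, where 14.8% were. Their median was 0.11, and the largest were the receptor substrates Irs2 (0.30) and Irs1 (0.19) and the kinase subunit Pik3ca (-0.27).

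Of the neighbours of Grb10, Ddc, which encodes the enzyme that makes dopamine and serotonin from their precursors, had an intensity of 198 with Wnt3a and 261 in the control, a difference of -0.40 on 1 probe set at the floor, and -0.08 on a set below it. This lay just outside the range of genes of like brightness (-0.38 to 0.41). Cobl, an actin nucleator gene on the other side, differed by -0.08 and by -0.07 on its second probe set.

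Dlk1 encodes a membrane protein of the Delta-like family, known as an inhibitor of fat cell formation and as a regulator of muscle progenitors. Both of its probe sets were below the floor on both arrays, so no fold is given. The brighter had an intensity of 52.9 with Wnt3a and 44.1 in the control, and the other 5.09 with Wnt3a and 5.01 in the control on the log2 scale. Meg3, the noncoding RNA of the same domain from the mother's copy, had levels of 7.05 with Wnt3a and 7.09 in the control, and its 5 probe sets at the floor ranged from -0.16 to 0.08. Mirg, a noncoding host of microRNAs further along, differed by 0.25 on 1 probe set at the floor, at 6.57 with Wnt3a and 6.32 in the control, and by -0.17 on a set below it.

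Sgce encodes ε-sarcoglycan, a membrane protein related to those of the dystrophin complex. Peg10 is derived from a retrotransposon and encodes a Gag-like protein needed in the placenta, and it starts next to Sgce in the opposite orientation. Sgce had an intensity of 576 with Wnt3a and 557 in the control, a difference of 0.05, and its dimmer probe set, under the floor, gave 0.10. Peg10 had an intensity of 194 with Wnt3a and 253 in the control, or 7.61 and 7.99 on the log2 scale, a difference of -0.38. This is at the edge of the range of the 1757 genes of like brightness (-0.38 to 0.38), and 1.66% of all measured genes had a lower difference. Of the adjacent genes, Sgce was thus nearly level and Peg10 lower, on 1 probe set each at the floor.

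The other measured genes of that domain differed less than Peg10. Casd1, a sialic acid acetyltransferase gene on the far side of Sgce, differed by -0.19 (6.47 with Wnt3a, 6.66 in the control). Ppp1r9a, which encodes the actin-binding neurabin, differed by -0.04, and by -0.15 on another probe set. The paraoxonase genes Pon2 and Pon3 differed by -0.06 and 0.07, and Asb4, a ubiquitin ligase subunit gene, by 0.02. Tfpi2, Calcr and Dlx5 were below the floor on both arrays.

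Mest encodes a membrane protein of the α/β-hydrolase family that is strongly expressed in embryonic mesoderm. Its 1 probe set had an intensity of 13018 with Wnt3a and 14314 in the control, or 13.67 and 13.81 on the log2 scale. The difference of -0.14 is 1.10-fold, small against all measured genes, of which 16.7% had a lower one, but at the edge of the narrow range of the 170 genes of like brightness (-0.13 to 0.12), and it turned to 0.05 under spike-in scaling. Copg2, a coatomer gene that overlaps the end of Mest on the other strand, differed by -0.08, and Klf14, a Krüppel-like factor gene, by 0.12.

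**Figure D3:**
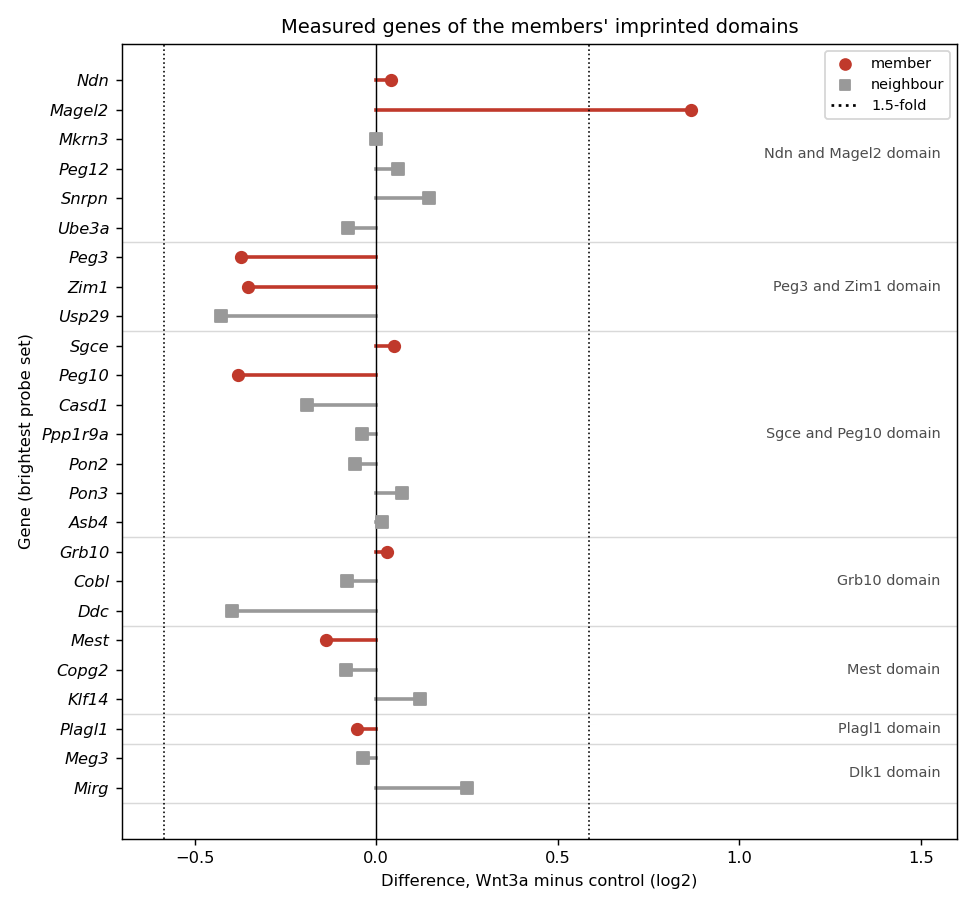
Difference in log2 units (Wnt3a minus control, horizontal axis) of each measured gene in the imprinted domains of the 10 genes, on its brightest probe set, with the 9 measured members as red circles and their neighbours as grey squares. The dotted lines mark 1.5-fold in either direction. Magel2 is the only gene here past them, and Peg3 (-0.37) and Usp29 (-0.43) lie to the left. Zim1 is drawn at its measured -0.35, but it passed the floor only through the control array and is at -0.09 when bounded at the floor.

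A longer list of imprinted genes was examined beside the 10. It was drawn up by name, and whether each gene on it is imprinted in myoblasts was not examined. Of its 57 genes with a single-gene probe set, 39 were measured, 20 higher, 18 lower and Mkrn3 equal. Over all 11397 measured genes, 5389 were higher and 5839 lower. The median of the 39 was 0.01. Past 1.5-fold were 0 on the high side and 1 on the low side, Cdkn1c, against 0.886% and 0.342% of all measured genes. At the threshold of 0.32, 0 were higher and 3 lower, Cdkn1c, Usp29 and Ddc, where 2.61% and 2.7% of all measured genes were. Under spike-in scaling 8 of 40 measured were higher and 1, Cdkn1c, lower, where 14.8% and 0.519% of all measured genes were. Without that scaling the highest value among the 39 measured was 0.26 (Ins2).

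Relatives of the members that are not known to be imprinted were counted in the same way. Of 17 with a single-gene probe set, 9 were measured, 6 of them higher and 3 lower. Over all 11397 measured genes, 5389 were higher and 5839 lower. The median of the 9 was 0.07. By 0.32 or more 0 of them differed, against 5.32% of all measured genes, from which little can be read for 9 genes. Under spike-in scaling 11 were measured, 10 of them higher and 3 by 0.32 or more, where 90.4% and 14.8% of all measured genes were. Maged1, a relative of Ndn and Magel2 that binds neurotrophin receptor p75, differed most of the 9 measured, with an intensity of 4384 with Wnt3a and 3570.1 in the control, a difference of 0.30 on 1 probe set. This lay just above the range of the 756 genes of like brightness (-0.25 to 0.29). Dlk2, a relative of Dlk1, differed by -0.20, and Maged2, a further MAGE gene, by 0.14.

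Among genes whose products are known to work with necdin, MAGE proteins or PEG3, Siah2 differed most. It encodes a ubiquitin ligase related to SIAH1, a partner of PEG3, and had an intensity of 1391 with Wnt3a and 962 in the control. The difference was 0.53, with 0.46 on its second probe set, outside the range of genes of like brightness (-0.29 to 0.23). The 7 measured genes of this list had a median of 0.05, 5 being higher and 2 lower. Over all 11397 measured genes, 5389 were higher and 5839 lower. Siah2 was the 1 of the list past 0.32, against 5.32% of all measured genes. Under spike-in scaling 2 were past it, Siah2 and Traf2, both higher, where 14.8% of all measured genes were. Siah1a differed by 0.01 on its brightest probe set (mean -0.05 ± 0.06, SD over 3 probe sets). The probe sets of Usp7, a deubiquitinase that acts with MAGEL2 and TRIM27, went different ways, from -0.36 to 0.23 (mean -0.03 ± 0.21, SD over 7 probe sets), with 0.05 on the brightest. Trim27 itself was at 11.86 with Wnt3a and 12.08 in the control, a difference of -0.22 against the 0.87 of Magel2.

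**Figure D4:**
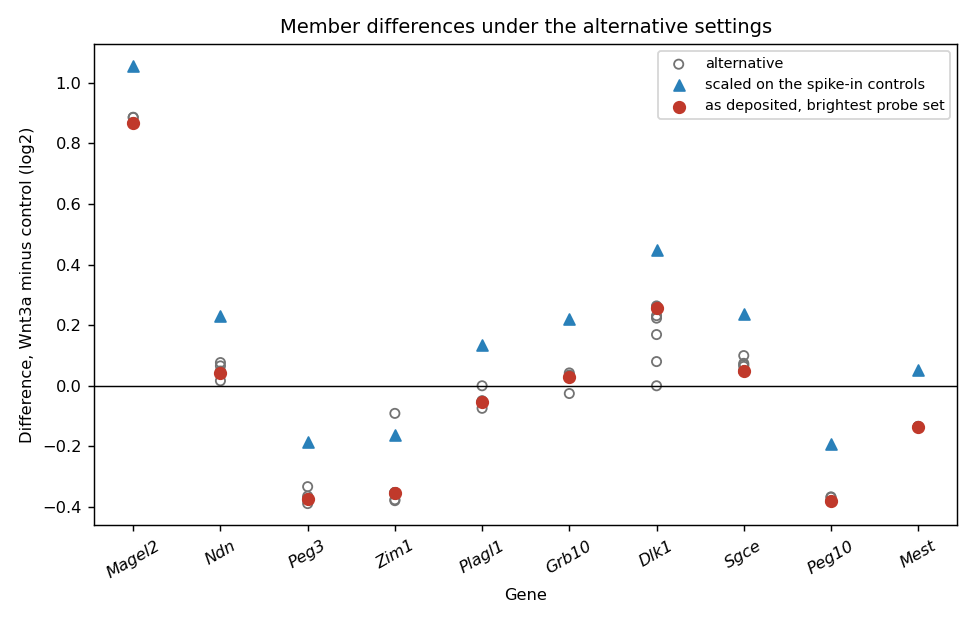
Difference in log2 units (Wnt3a minus control, vertical axis) of each of the 10 genes under the deposited normalization (red), under scaling on the spike-in controls (blue triangles) and under the other alternative settings (open circles). Magel2 stayed between 0.87 and 1.06, and Peg3 and Peg10 stayed below 0 in all of them, while Mest and Plagl1 lie above 0 under spike-in scaling.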

How the data were processed

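The deposited table holds 1 intensity per probe set and array on a linear scale. Per the submitters' processing notes, the authors used RMA, affy and limma, with order, settings and versions not given in the sources used here, nor a genome build. Per the labels' protocols, biotinylated cRNA was made with a 3′ expression kit. From these intensities, log2(intensity + 1) was computed here in Python 3.11.15 (pandas 2.3.3, numpy 2.4.6, and statsmodels 0.14.6 for loess). Gene names came from the platform annotation (34945 probe sets with 1 gene, 932 with several, 9160 unnamed, 64 controls left out), and the Entrez identifiers of all 10 members matched RefSeq (GRCm38.p6). Of several probe sets of a gene, the brightest on average stood for it. With 1 array per group no test was possible, and genes were counted by fold. The steps were tested on simulated data with set changes larger than the deposited differences of the members. That was a check of the steps only and does not bear on the differences given here. Alternatives covered pseudocount, probe set choice, normalization, floor and threshold.

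The members and lists were chosen with earlier results of these data known. Named were all members, every measured neighbour in their domains, and from other lists the measured genes that differed by at least 0.32 on the log2 scale, or else the 3 with the largest differences. Genes named outside this rule, such as Igf2, Igf2r, Siah1a, Usp7 and Trim27, were chosen after their values were seen.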

Additional observations from a re-analysis of the deposited data

How the results depend on the processing

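Magel2 was the 1 member past 1.5-fold in the main setting and in all 10 alternatives of pseudocount, probe set choice, normalization and floor (0.87 to 1.06). Of these, 6 left its value identical and could not have changed it. It has 1 probe set, above each floor on both arrays (8.89 with Wnt3a, 8.03 in the control). The median taken off in centring was 0. At 2-fold 0 members passed in the main setting, against 0.316% of all measured genes, and 1, Magel2, under spike-in scaling, against 0.425%. At 0.32 on the log2 scale 4 of the 9 measured members passed in the main setting, against 5.32%. Zim1 was 1 of these 4, but it passed the floor only through the control array. It was at -0.09 with its level raised to the floor. Under spike-in scaling 1 member passed 0.32, Magel2, where 14.8% of all measured genes were higher and 0.519% lower by that much. For the longer list of imprinted genes 1, Cdkn1c, passed 1.5-fold in the main setting and in those alternatives. In the main setting that was 1 of 39, where 0.886% of all measured genes were higher and 0.342% lower. At 0.32, 3 of the 39 passed in the main setting, against 5.32%. Under spike-in scaling 8 of 40 were higher and 1 lower by 0.32 or more, where 14.8% and 0.519% of all measured genes were. Of the non-imprinted relatives 1 passed 1.5-fold without a floor, Mageh1, which was below the floor on both arrays. Without a floor 115 of all 18193 genes were at least 1.5-fold higher and 42 lower. Scaling on the spike-in controls moved the median of all measured genes to 0.19, that of the members to 0.14 and that of the longer list to 0.20. With a floor of 8, 7 members were measured, Peg10 and Zim1 not among them. Their median was 0.03, beside -0.01 over all measured genes. Without probe sets that can match several transcripts, the median of 7 measured members was -0.14, beside -0.01. Over the alternatives Peg3 ran from -0.39 to -0.18, Peg10 from -0.38 to -0.19 and Zim1 from -0.38 to -0.09. Mest, Plagl1 and Grb10 changed sign in 1 alternative each, Mest (0.05) and Plagl1 (0.14) under spike-in scaling and Grb10 (-0.03) as a mean over its probe sets. Grb10 had no value without probe sets that can match several transcripts. No paired analysis was possible because each group has 1 array, and no array could be left out for the same reason. Magel2, Peg10, Zim1 and Mest have 1 probe set each.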

Other observations

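Probe sets that the annotation assigns to several genes were left out of the comparison, and some of them hold imprinted transcripts. The 1 probe set annotated to H19, a noncoding RNA that is abundant in muscle precursors and expressed from the mother's copy, together with its microRNA Mir675, had an intensity of 27077 with Wnt3a and 27685 in the control, a difference of -0.03. Of the probe sets shared by Snurf and Snrpn, which are read from 1 transcript in the domain of Ndn and Magel2, the brightest had an intensity of 2982 with Wnt3a and 2824 in the control, a difference of 0.08, and the others above the floor gave 0.00, -0.05 and -0.17.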
